A study of Mus musculus with 3 samples.

Results

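The 8 genes described here encode transcription factors of the gonad and of the Müllerian duct, and their DNA methylation was read in ID8, a mouse ovarian cancer cell line. They are Wt1, Gata4, Emx2, Foxl2, Pax8, Dmrt1, Dmrt3 and Dmrt2, read at the CCCGGG sites of 6 windows of the mm9 genome. Each window is named for 1 gene, except that the Dmrt genes share 1. The windows held 90 of the 173449 sites that the tables list, and 36 of these had at least 10 reads in each of 3 libraries. Those 36 are called covered, out of 24112 covered sites in all. The loci were chosen from results of these same libraries with their levels in view, so the levels are given as a description, without a test.

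All 3 libraries belong to 1 group, named ID8_1, ID8_2 and ID8_3 and called replicates 1, 2 and 3 here. The labels give the strain C57BL/6, female cells of the ovarian surface epithelium and growth in RPMI medium with fetal bovine serum and gentamicin, at baseline and untreated. The series calls the samples independent without naming separate cultures, and no normal ovarian cells were analysed beside them. The line has been carried in culture, and the assay measures DNA alone, so expression of these genes and of markers of the labelled cell type was not measured.

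The assay was DREAM, digital restriction enzyme analysis of methylation. SmaI cuts CCCGGG only where its CpG is unmethylated, and XmaI then cuts the methylated copies, so the end left on each fragment records the state of the site it came from. The level of a site is the methylated share of its reads in percent, averaged over the libraries. Levels under 10% are called low, 10% to under 70% partial and 70% or more high. The libraries held 7689526 to 10361138 reads, of which 14639 to 18997 fell at the listed sites of these windows. Intervals on pooled reads are exact Clopper-Pearson intervals at 95%, and a count of 0 is given the limit that 3 reads would make; both cover counting error only. A partial level is an average over the cells and alleles of a library, which cannot be told apart.

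As background, the somatic cells of the early gonad arise from the coelomic epithelium, the tissue that also covers the adult ovary. Wt1, a zinc finger factor, Gata4, a GATA factor, and Emx2, a homeobox factor, are needed for that epithelium to form a gonad. Foxl2, a forkhead factor, keeps granulosa cells ovarian, and Dmrt1, of the DM domain family, keeps the testis male. Pax8, a paired box factor, marks epithelium of the Müllerian duct, from which the oviduct and uterus derive. Dense CpG regions at the promoters of such developmental genes are usually unmethylated in normal cells, and their methylation in cancer lines is often seen with silencing.

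What the assay can read at a promoter depends on whether it holds CCCGGG. RefSeq promoters, each running 250 bases before to 50 after the gene's start, were matched for 5 of the 8 genes. CCCGGG, which reads the same on both strands, was present in Foxl2 alone, 1 time, and absent from Pax8, Emx2, Dmrt2 and Dmrt3. Of all 32851 promoters of that length, 13.5% held it. The promoters of Foxl2, Emx2 and Pax8 are shown 5′ to 3′, with each CG in capitals and, in Foxl2, the whole CCCGGG in capitals. The sequences show how many CpGs such a region holds. Of these the assay can read 1 in Foxl2, but no CpG in the Emx2 and Pax8 sequences.
Foxl2: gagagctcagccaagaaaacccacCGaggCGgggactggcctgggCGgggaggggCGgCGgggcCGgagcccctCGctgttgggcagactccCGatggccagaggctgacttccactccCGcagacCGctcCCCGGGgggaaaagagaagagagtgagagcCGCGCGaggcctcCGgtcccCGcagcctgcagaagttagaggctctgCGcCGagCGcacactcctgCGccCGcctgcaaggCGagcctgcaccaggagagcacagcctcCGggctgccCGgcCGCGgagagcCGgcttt
Emx2: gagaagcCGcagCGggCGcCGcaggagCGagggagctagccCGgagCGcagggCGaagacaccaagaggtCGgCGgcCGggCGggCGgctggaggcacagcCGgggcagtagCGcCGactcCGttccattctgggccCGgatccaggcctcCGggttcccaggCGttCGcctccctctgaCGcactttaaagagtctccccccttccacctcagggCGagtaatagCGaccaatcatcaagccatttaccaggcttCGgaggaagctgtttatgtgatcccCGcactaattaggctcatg
Pax8: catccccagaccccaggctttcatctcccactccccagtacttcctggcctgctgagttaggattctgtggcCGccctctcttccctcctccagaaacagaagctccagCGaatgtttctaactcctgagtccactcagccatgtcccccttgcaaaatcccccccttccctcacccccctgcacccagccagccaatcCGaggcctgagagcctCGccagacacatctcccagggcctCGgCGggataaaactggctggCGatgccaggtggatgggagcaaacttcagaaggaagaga
They lie on build GRCm38.p6 at chr9:98955357-98955656 on the plus strand, chr19:59458440-59458739 on the plus strand and chr2:24475550-24475849 on the minus strand. Foxl2 had 27 CpGs there and its CCCGGG began at base 132; Emx2 had 26 CpGs and Pax8 7, with 18 in Dmrt2 and 15 in Dmrt3. The median over all promoters was 7. The methylation tables are on mm9, and no annotation of that build was used, so no listed site was assigned to a promoter, exon or intron, and within the Dmrt window no site was assigned to 1 of its 3 genes. By their RefSeq promoters Dmrt3 lies before Dmrt2 on chromosome 19, and no promoter of Dmrt1 was matched.

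Of the 36 covered sites, 11 were low (30.6%), 7 partial (19.4%) and 18 high (50%). Among all covered sites 45.3% were low, 15.9% partial and 38.8% high. By window, the mean level was 25.1% ± 2.26 (SD, n = 3) at Wt1, 42.1% ± 0.659 at Gata4, 63.4% ± 0.445 at the Dmrt genes, 65.4% ± 2.48 at Emx2 and 69.1% ± 0.426 at Foxl2. Pax8 had 1 covered site, at 100%. The libraries of Emx2 (63.0% to 67.9%) overlapped those of the Dmrt window (62.9% to 63.7%), whereas other neighbours in this order did not overlap. In each window with several covered sites the lowest site lay between 0% and 2.56% and the highest between 98.3% and 100%, with an SD over sites of 35.6 to 49.2 percentage points. The order of the means therefore depends on which sites were read.

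**Figure D1:**
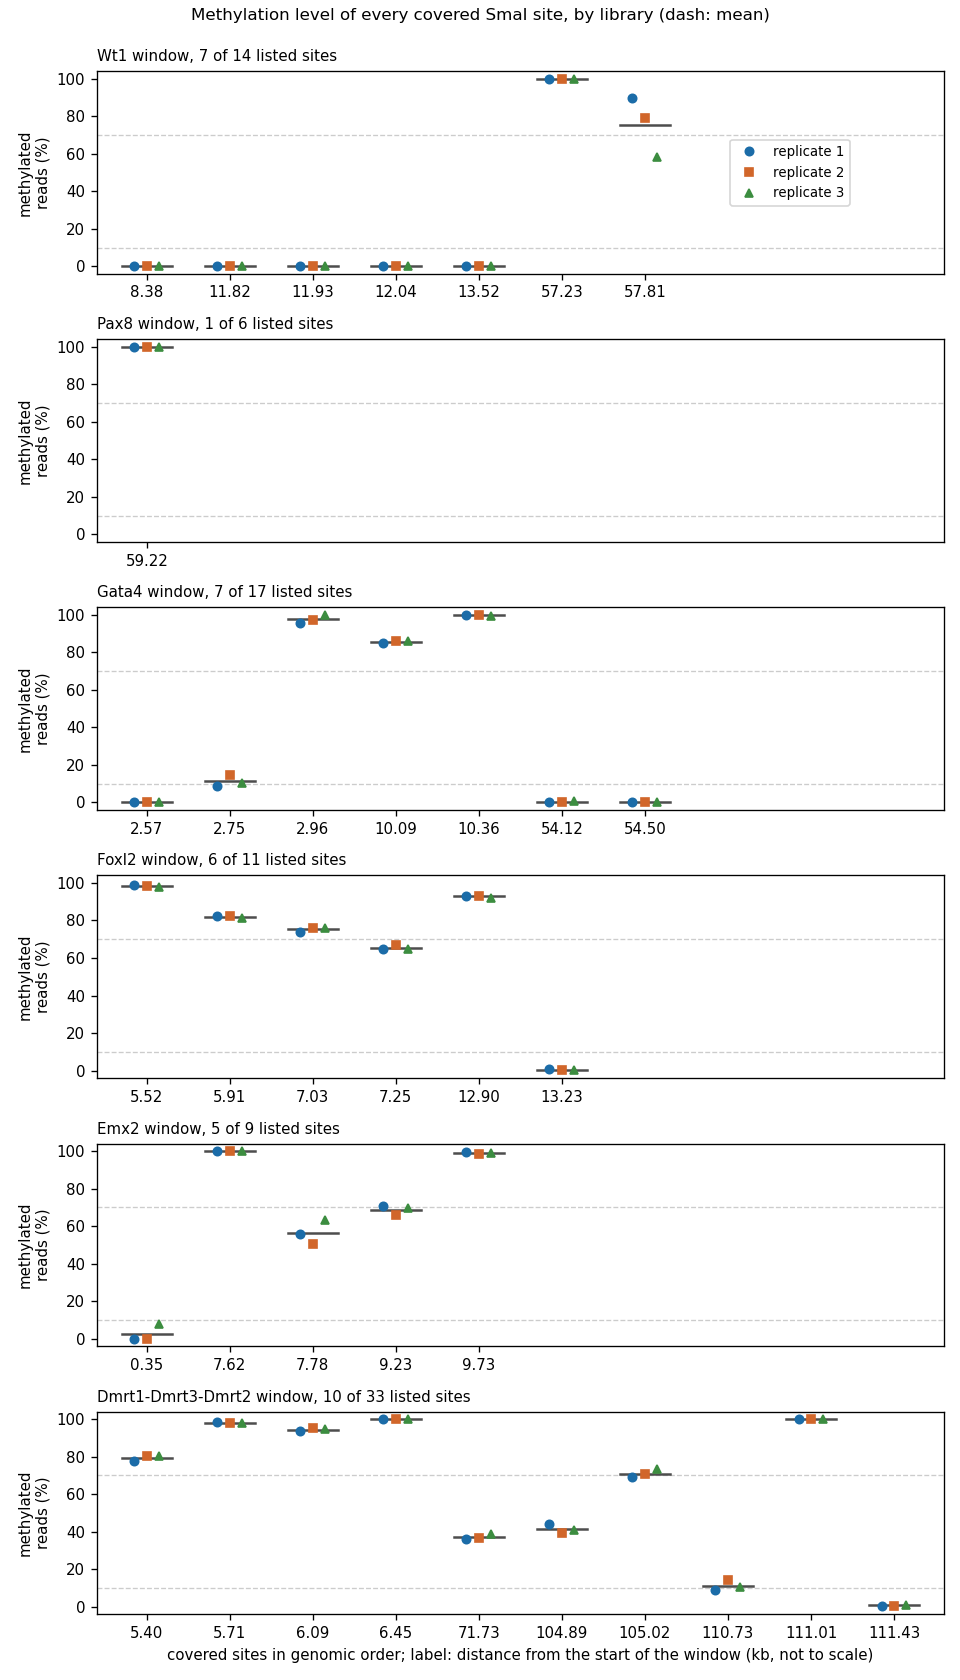
Methylated reads in percent at each of the 36 covered sites, in genomic order within 6 windows; points are the 3 libraries, dark dashes their mean, and dashed lines the class limits of 10% and 70%. The first 5 Wt1 sites lie at 0 in each library, and the spread between libraries is widest at the last Wt1 site, from 58.3% to 89.5%.

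At Wt1, which patterns the coelomic epithelium and is a usual marker of mesothelium, the window (chr2:104955000-105020000) was unmethylated at its first 5 covered sites and methylated at its last 2. No methylated read was counted in any library at 104963383, 104966816, 104966928, 104967035 and 104968523. The reads there, in replicates 1, 2 and 3, were 92, 54 and 71 at 104963383, and 52, 32 and 37 at 104968523. Between these lay a run of 3 sites within 219 bp with 16, 19 and 32 reads at 104966816, 28, 28 and 46 at 104966928, and 17, 10 and 24 at 104967035. All 3 libraries thus gave the same value at each of the 5 sites. With 217, 67, 102, 51 and 121 summed reads in genomic order, a count of 0 allows a methylated share of up to 1.38%, 4.48%, 2.94%, 5.88% and 2.48%. A further site between them, 104967871, was just short of the read minimum with 11, 6 and 10 reads, none of them methylated.

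The other end of the Wt1 window was methylated. At 105012229 each read was methylated, 26 of 26, 17 of 17 and 18 of 18. At 105012815 the libraries gave 17 of 19 (89.5%), 15 of 19 (78.9%) and 7 of 12 (58.3%), with a mean of 75.6% ± 15.8. Replicate 3 was the lowest of them, and the largest difference, 31.1 percentage points between replicates 1 and 3, had an unadjusted p of 0.0776 by Fisher's exact test on these read counts (adjusted p = 1). That site had the widest spread of all 36, and its 50 summed reads place the pooled level anywhere from 64.0% to 88.5% by the exact interval. With at least 30 reads in every library, 2 sites of the window were left, both at 0%.

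Gata4, which acts with Wt1 and steroidogenic factors in gonadal somatic cells, had low and high sites in its window (chr14:63810000-63900000). A step between them lay near the start of the window, which was not placed against the gene's own start. The site at 63812567 had no methylated read among 95, 163 and 170, which allows up to 0.701% of the 428 summed reads. At 63812753, 186 bp on, methylated reads were 24 of 268 (8.96%), 62 of 417 (14.9%) and 51 of 489 (10.4%), a mean of 11.4% ± 3.08. At 63812956, a further 203 bp on, they were 64 of 67 (95.5%), 106 of 109 (97.2%) and 119 of 119, a mean of 97.6% ± 2.26. The level was thus higher by 86.2 ± 3.61 percentage points at the site 203 bp on, in 3 of 3 libraries, and replicate 1 alone put the middle site in the low class.

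Further along, at 63820086 and 63820357, Gata4 was high. The first of these had 409 of 481, 575 of 669 and 626 of 729 reads methylated, a mean of 85.6% ± 0.509, and the second 478 of 478, 658 of 659 and 740 of 744, a mean of 99.8% ± 0.277. At 63864117 and 63864503, 386 bp apart, the window was low again, with 0 of 605, 1 of 566 and 6 of 728 reads methylated at the first (0.334% ± 0.434) and 0 of 583, 0 of 566 and 1 of 696 at the second (0.0479% ± 0.0830). The libraries did not overlap between the high pair and the low pair. The 6 methylated reads in replicate 3 make up most of the 7 counted at 63864117.

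Emx2, needed for the urogenital ridge, was methylated at 4 of its 5 covered sites (chr19:59525000-59545000), partly at 2 of them. The low site, 59525355, lay at the edge of coverage with 10, 18 and 13 reads and 1 methylated read, in replicate 3 (mean 2.56% ± 4.44; exact interval of the pooled reads 0.0617% to 12.9%). At 59532625 each of 65, 107 and 101 reads was methylated. The next site, 59532782, only 157 bp away, had 50 of 90 (55.6%), 75 of 149 (50.3%) and 84 of 133 (63.2%), a mean of 56.3% ± 6.45 a difference of -43.7 ± 6.45 points. Replicate 2 was lowest there and replicate 3 highest.

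At 59534226 the Emx2 libraries gave 502 of 708 (70.9%), 412 of 624 (66.0%) and 459 of 660 (69.5%), a mean of 68.8% ± 2.52 with replicate 1 just above the limit of the high class. At 59534734, 508 bp on, 490 of 492, 449 of 456 and 470 of 474 reads were methylated, a mean of 99.1% ± 0.569. The Emx2 mean depends on the low site: with at least 30 reads in every library it was lost and the mean of the other 4 was 81.1%.

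Foxl2, the factor that keeps granulosa cell identity, was methylated at 5 of its 6 covered sites (chr9:98850000-98865000). At 98855519 methylated reads were 310 of 314 (98.7%), 328 of 333 (98.5%) and 379 of 388 (97.7%), a mean of 98.3% ± 0.550. At 98855910 they were 500 of 607, 528 of 640 and 563 of 691, a mean of 82.1% ± 0.558. A second run began with 98857033, at 450 of 608, 665 of 875 and 833 of 1097 (75.3% ± 1.13). Its neighbour 98857247 had 178 of 275, 280 of 418 and 351 of 541 (65.5% ± 1.26), the only partial site of the window. From the first to the last of these 4 covered sites, each next one was lower in 3 of 3 libraries, by 16.2 points (difference -16.2 ± 0.178) within the first run and 9.78 points (-9.78 ± 1.11) within the second.

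The last Foxl2 sites differed by almost the full scale. At 98862904, 799 of 857, 1003 of 1076 and 1031 of 1118 reads were methylated, a mean of 92.9% ± 0.581, and at 98863235, 331 bp on, 5 of 684, 2 of 789 and 3 of 886, a mean of 0.441% ± 0.255. The difference was -92.4 ± 0.543 points. These were deeply read sites, with 3051 and 2359 reads summed over the libraries, against a median of 786.5 over the 36 sites.

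Pax8, expressed in Müllerian epithelium, thyroid and kidney, had few CCCGGG sites and 1 covered one (chr2:24270000-24336000). At 24329217 each read was methylated, 10 of 10, 11 of 11 and 22 of 22. With 43 summed reads a count of 0 allows an unmethylated share of up to 6.98%. Replicate 1 met the minimum of 10 reads exactly, and with at least 30 reads in every library no Pax8 site was left.

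The window of the Dmrt genes (chr19:25575000-25755000) held 33 listed sites, of which 10 were covered: 6 high, 3 partial and 1 low. Dmrt1 acts in testis and germ cells, Dmrt2 in the embryonic somites and Dmrt3 in spinal interneurons, each through a DM DNA-binding domain. The first 4 sites of the window form a run of 1048 bp that was high throughout. At 25580404 it had 787 of 1014 (77.6%), 1094 of 1363 (80.3%) and 1112 of 1386 (80.2%), a mean of 79.4% ± 1.52. The next sites were at 98.1% ± 0.402 (25580708) and 94.4% ± 0.874 (25581095). At 25581452 all 1121, 1254 and 1262 reads were methylated, which allows an unmethylated share of up to 0.0825%.

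Further along, the Dmrt window held partial sites. At 25646729, a site with no other listed within 500 bp, 24 of 66 (36.4%), 15 of 41 (36.6%) and 16 of 41 (39.0%) reads were methylated, a mean of 37.3% ± 1.48. At 25679885 the counts were 33 of 75 (44.0%), 50 of 128 (39.1%) and 62 of 151 (41.1%), a mean of 41.4% ± 2.48. Its neighbour 25680017, 132 bp away, had 54 of 78 (69.2%), 101 of 143 (70.6%) and 112 of 153 (73.2%), a mean of 71.0% ± 2.01. The neighbour was higher by 29.6 ± 3.84 points, with no overlap between the libraries of the pair.

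The last run of the Dmrt window crossed almost the full scale in both directions within 699 bp. At 25685727, 3 of 34 (8.82%), 7 of 49 (14.3%) and 4 of 38 (10.5%) reads were methylated, a mean of 11.2% ± 2.79. At 25686011, 284 bp on, 1546 of 1546, 1970 of 1970 and 2046 of 2047 were (99.98% ± 0.0282). At 25686426, a further 415 bp on, the counts were 1 of 165, 1 of 185 and 2 of 188, a mean of 0.737% ± 0.285. The step up was 88.8 ± 2.79 points and the step down -99.2 ± 0.313. Depth went with these levels: the middle site had 5563 summed reads and its neighbours 121 and 538, and the part of depth in the difference was not tested.

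**Figure D2:**
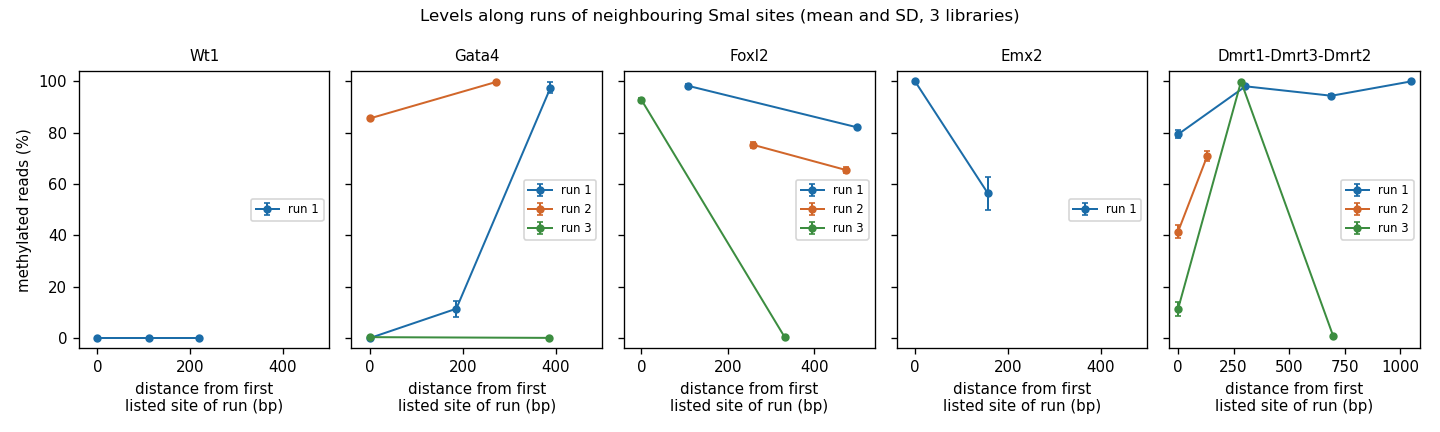
Mean level with SD over 3 libraries at the covered sites of the 11 runs, against the distance in bp from the first listed site of the run; a run holds listed sites no more than 500 bp apart, at least 2 of them covered, and is numbered in genomic order within its window. Run 1 of Gata4, run 3 of Foxl2 and run 3 of the Dmrt genes cross most of the scale, whereas Wt1 stays at 0.

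The 16 pairs of adjacent covered sites no more than 500 bp apart had a median difference of 15.2 percentage points, against 3.10 over all 8729 such pairs. Low sites were 30.6% of the covered sites here and 45.3% of all, and the part of this class mix in the medians was not tested. One site was low and the other high in 2 of the 16 pairs (12.5%), at Foxl2 and the Dmrt genes, against 10.1% of all pairs. Differences of 50 points or more, a size chosen after the values were seen, were found in 4 of the 16 (25.0%) and in 17.6% of all pairs. Those pairs were 1 at Gata4, 1 at Foxl2 and 2 that share a site at the Dmrt genes.

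The covered sites were also set beside all covered sites with the same number of listed sites within 500 bp. Of the 13 with at least 2 such neighbours, 7 were high (53.8%) and 4 low (30.8%), whereas 23.8% of all 7474 sites of that kind were high and 62.3% low. Of the 14 with 1 neighbour, 7 were high (50%) and 4 low (28.6%), against 39.3% and 43.3% of all. The 9 without a neighbour had 4 high sites (44.4%) and 3 low ones (33.3%), against 56.9% and 27.3%. Because the loci were chosen with their levels known, these shares are a description and were not tested. A fragment can carry close sites at its ends, so they are not independent, and of the 7 high sites with at least 2 neighbours 3 lay at Foxl2, 3 in the Dmrt window and 1 at Gata4.

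At 6 of the 36 sites no methylated read was counted in any library, 5 at Wt1 and 1 at Gata4, against 15.1% of all covered sites. At 4 sites no unmethylated read was counted, 1 each at Wt1, Pax8, Emx2 and the Dmrt genes, against 9.45% of all.

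The libraries were compared with each other at these sites. Fisher's exact test per site, adjusted by Benjamini-Hochberg over all 24112 covered sites, called 0 of the 36 between any pair of libraries, where a call also needed 20 percentage points. Over all sites the share called was 0.00415% for replicate 1 against 2, 0.00415% for 1 against 3 and 0% for 2 against 3. In the same order, 2, 2 and 1 of the 36 had an unadjusted p under 0.05, against 3.02%, 3% and 2.84% of all sites, and the chi-square test also called 0. The smallest unadjusted p was 0.0203, at the Dmrt site 25581095 between replicates 1 and 2, a difference of 1.73 points. With so few calls over all sites, 0 of 36 shows nothing particular to these loci, and thinly read sites such as 105012815 at Wt1 could hardly pass the test. The 7 partial sites had a median SD of 2.52 points over the libraries, against 3.17 for all partial sites; the SD of sites at 0% or 100% is 0 by their level.

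The class of 31 of the 36 sites was the same in each library. The other 5 were 105012815 at Wt1, 63812753 at Gata4, 59534226 at Emx2 and 25680017 and 25685727 in the Dmrt window. The same share over all covered sites was not computed, so the count shows nothing particular to these loci. Without replicate 2, 4 sites were partial in place of 7. The authors' adjusted percent put 4 sites in the partial class and 21 in the high class. It moved 98857247 at Foxl2 from 65.5% to 77.8% ± 1.45, and 59532782 and 59534226 at Emx2 to 70.4% ± 5.16 and 80.2% ± 2.67.

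**Figure D3:**
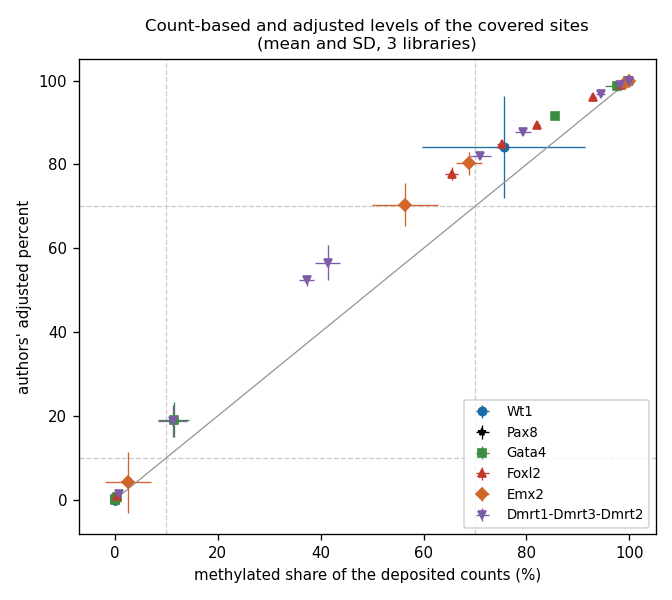
The authors' adjusted percent against the methylated share of the deposited counts at the 36 covered sites, as mean and SD over 3 libraries; the grey line marks equal values and dashed lines the class limits of 10% and 70%. Points at the ends lie on the line, and those between lie above it, such as the Dmrt site at 41.4% that is adjusted to 56.5%.

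Most listed sites of the windows were not covered, although the covered share, 40%, stood above the 13.9% of all listed sites. Of the 54 others, 43 had reads but fewer than 10 in some library and 11 had none. The share covered was 7 of 14 at Wt1, 1 of 6 at Pax8, 7 of 17 at Gata4, 6 of 11 at Foxl2, 5 of 9 at Emx2 and 10 of 33 at the Dmrt genes. No read was counted at 104971403 (Wt1), at 63823681, 63828789, 63852423, 63863289 and 63891483 (Gata4), at 59531697 (Emx2) or at 25592788, 25599659, 25717983 and 25749341 (Dmrt genes). Sites without reads give no level at all.

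Sites with reads under the minimum were thinly read and give no firm level. At Wt1 they were 104955040, 104959084, 104964034, 104967871, 105009137 and 105019032, with 1 to 27 summed reads. The 5 at Pax8 (24291264, 24308824, 24311127, 24328279 and 24329914) had 3 to 20, and the 5 at Gata4 (63810273, 63847432, 63859607, 63859654 and 63865535) had 3 to 23. At Gata4, 4 of the 5 had no methylated read. The 5 at Foxl2 (98851017, 98852768, 98855411, 98856775 and 98858667) had 8 to 24, and the 3 at Emx2 (59526242, 59535827 and 59543915) had 3 to 28. The 19 in the Dmrt window had 2 to 25 summed reads and lay at 25589959, 25614427, 25617268, 25619698, 25628413, 25639011, 25642906, 25647406, 25654469, 25660350, 25661470, 25668945, 25684522, 25689056, 25697973, 25709609, 25747965, 25748185 and 25749332. In that window 6 of the 19 had no unmethylated read and 3 no methylated read, so no direction was common to them.

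**Figure D4:**
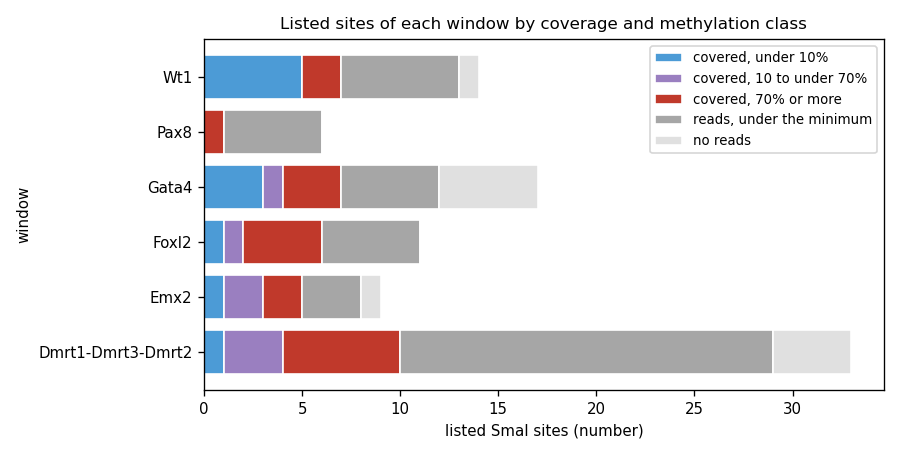
Number of listed SmaI sites in each window, split into covered sites of the low, partial and high class, sites with reads under the minimum of 10 per library, and sites without reads. Wt1 has 5 low sites, the most of any window, and the Dmrt window has 6 high sites and the most uncovered ones.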

How the data were processed

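DREAM libraries of untreated ID8 cells were sequenced on an Illumina HiSeq2500, per the labels' protocols. Bowtie2, SAMtools and the builds mm9 and rn4 are named in the submitters' processing notes, without versions or roles. The methylated, unmethylated and total read counts of each listed site were used as deposited; the treatment of duplicate reads is not stated. The authors also deposited a raw percent and an adjusted percent, which differs from the raw one by a constant factor on the odds in each library and whose origin is not stated. A table of summed counts was not used here.

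Window limits, class limits, the minimum of 10 reads and all members were chosen with earlier results of these data known. Levels, exact intervals and Fisher's exact test (two-sided, over all covered sites) were computed with Python 3.11.15, pandas 2.3.3 and SciPy 1.17.1, and the test was checked on simulated counts. The rule for named sites was to report every covered site. Positions are those of the deposited tables on mm9, whose convention is not stated there. Promoter sequences are from RefSeq (GRCm38.p6). Alternatives were minimums of 5 and 30 reads, the adjusted percent, summed counts, class limits of 20% and 80%, the chi-square test, no minimum difference, and leaving out each library. Separate cultures are not named, so p-values between libraries reflect differences that can be purely technical.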

Additional observations from a re-analysis of the deposited data

Results flagged for a closer look

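Some sites outside the levels had reads, though fewer than 10 in some library. Each of the 10 sites here had at least 10 summed reads and more than 3 methylated ones, above the limit that a count of 0 allows; the levels are those of the summed reads, with exact Clopper-Pearson intervals at 95%. At Pax8, 10 of 20 reads were methylated at 24328279 (50%, interval 27.2% to 72.8%), beside the single covered site at 100%. At Foxl2, all 22 reads were methylated at 98855411 (100%), 108 bp before the covered site at 98.3%, and 16 of 24 at 98856775 (66.7%, interval 44.7% to 84.4%), where replicate 2 gave 9 of 9 and replicates 1 and 3 gave 4 of 7 and 3 of 8. At Emx2, 27 of 28 were methylated at 59526242 (96.4%, interval 81.7% to 99.9%), the next listed site after the low one at 59525355, and 10 of 17 at 59535827 (58.8%, interval 32.9% to 81.6%). In the Dmrt window, 11 of 17 were methylated at 25617268 (64.7%), 8 of 12 at 25647406 (66.7%), 19 of 19 at 25684522 (100%), 19 of 20 at 25748185 (95%) and 25 of 25 at 25749332 (100%). The rule favours methylated sites. For want of more than 3 methylated reads it left out 25639011 (3 of 14, 21.4%), 25689056 (1 of 12, 8.33%), 25709609 (3 of 13, 23.1%) and 25619698 (0 of 21) there. It also left out 104967871 at Wt1 (0 of 27) and 63865535 at Gata4 (0 of 23). Of the 10 sites, 98856775, 59526242, 59535827, 25748185 and 25749332 had at least 5 reads per library. They entered the alternative with that lower limit, in which Fisher's exact test between libraries called 0 of 43 sites of the windows. Sites so thinly read could hardly pass that test. The rest of the 10 were not tested between libraries.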

How the results depend on the processing

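Of 69 values under alternatives, 56 stayed within 1 SD of the main value (means) or 1.5 times it (counts), and 13 moved. A minimum of 5 reads gave means of 21.9% at Wt1, 68.5% at Foxl2 and 69.4% at Emx2; a minimum of 30 gave 0% at Wt1 (2 sites), 81.1% at Emx2 (4 sites), 7 low sites in place of 11 and no site at Pax8. These minimums change which sites enter. Class limits of 20% and 80% gave 13 low, 9 partial and 14 high sites, in place of 11, 7 and 18, each within 1.5 times the main count. The adjusted percent gave means of 44.3% at Gata4, 74.7% at Foxl2, 70.9% at Emx2 and 69.5% at the Dmrt genes, and 4 partial sites in place of 7. Leaving out each replicate gave means of 21.7% to 26.3% at Wt1, 41.9% to 42.5% at Gata4, 68.9% to 69.3% at Foxl2, 64.1% to 66.6% at Emx2 and 63.2% to 63.6% at the Dmrt genes, with Pax8 at 100% throughout; low sites numbered 11 to 14, partial 4 to 8 and high 17 to 19. Without replicate 2, Wt1 had 8 covered sites. The number of these sites called between libraries was 0 under each alternative run. No paired analysis was possible because there is 1 group. Depth limits Wt1 and Pax8 most, where the covered sites had medians of 67 and 43 summed reads.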

Other observations

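Thinly read sites without methylated reads stood beside covered low sites at Wt1 and Gata4. At Wt1, 104967871 had 27 summed reads and none methylated, which allows a methylated share of up to 11.1%. At Gata4, 63865535, the next listed site after the low pair, had 23 summed reads and none methylated (up to 13.0%). In the Dmrt window 25619698 had 7 reads in each library and none methylated (up to 14.3%), although the only covered low site of that window was 25686426.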
